A study of Drosophila melanogaster with 20 samples.

Results

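The 3 serotonin receptor genes measured here are 5-HT1A, 5-HT1B and 5-HT7 of Drosophila melanogaster. They were taken as all spots whose single gene symbol in the probe annotation is one of these names, which gave 8 of the 16896 spots on each array, and 3 of the 11526 features that were measured often enough to be tested. The RNA came from adult females of the Oregon-R strain, 4 to 10 days old, kept at 16 h light, 8 h dark and 60% humidity, and was extracted from pools of about 240 flies. All flies were misted with 2 mL of 99% ethanol, using a Potter's tower, and sampled 6 h later, and the controls received the solvent alone. Treated flies received in it an ethyl acetate extract of Piper nigrum (black pepper) seed at 0.2 mg/mL, or the same extract at 0.1 mg/mL with pyrethrin at 0.004 mg/mL (the combination), or pyrethrin at 0.04 mg/mL. Each of the 20 cDNA arrays compared a treated extract in 1 colour channel with an ethanol control in the other. The 4 treated extracts of pepper and the 4 of the combination were each put on 2 arrays with the dyes exchanged. The 4 pyrethrin extracts were each put on 1 array, always in Cy3, and were set against 2 control extracts (number 3 for replicates 1 and 2, number 4 for replicates 4 and 5).

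Serotonin acts on flies mainly through receptors of the G protein-coupled family. 5-HT1A and 5-HT1B couple to inhibitory G proteins and lower cyclic AMP, and 5-HT7 couples to stimulatory G proteins and raises it. In the fly brain 5-HT1A is known for its role in sleep, 5-HT1B for setting the sensitivity of the circadian clock to light, and 5-HT7 for courtship, mating and olfactory learning. Pyrethrin holds voltage-gated sodium channels of nerve cells open, and amides of pepper seed inhibit cytochrome P450 enzymes. The series compared each spray with ethanol and then the sprays with each other. In RNA from pooled flies, fewer cells of a type and less RNA per cell cannot be told apart.

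All values below are log2 ratios of treated over control, centred on each array's median, so 0 is the control level and 1 a doubling. The labels do not state which channel is the numerator. The direction used is likely: after the mean array of each treatment and orientation was subtracted, the partner arrays of an exchange correlated positively in 8 of 8 pairs, with a mean of 0.217 (exact one-sided permutation p = 0.00174 over 576 pairings, the smallest it can give). The permutation exchanged partners within a treatment, so it tests the pairing, and the direction is read from the sign of the correlations. Before that subtraction 6 of the 8 partner correlations were negative (-0.202 to 0.269 over all). The other reading, Cy5 over Cy3, is given beside the results where it changes a sign or a call. An array gave 13953 to 16853 values, the correlation of neighbouring duplicate spots over an array was 0.172 to 0.728, and the titles of 2 arrays (pepper replicates 3 and 4, treated RNA in Cy5) name another study.

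The receptors were not measured with equal precision. The 2 spots of 5-HT1A had a value on 20 of 20 arrays, differed by a median of 0.154 and correlated at 0.814 over the arrays. The 2 spots of 5-HT1B were both measured on 12 arrays, differed by a median of 0.524 and correlated at -0.152, so the duplicates of this gene did not follow each other, and 10 of its spot values were missing. 5-HT7 had 4 spots in 2 neighbouring pairs that stand apart on the array. The pair with a listed sequence accession had spots that differed by a median of 0.216 (r = 0.674, 19 arrays), the pair without an accession had spots that differed by a median of 0.377 (r = 0.286, 14 arrays), and the means of the 2 pairs correlated at 0.343 over 19 arrays. Over all spot pairs the median difference on an array had a median of 0.189. These correlations describe arrays that share treatments and carry no test.

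**Figure D1:**
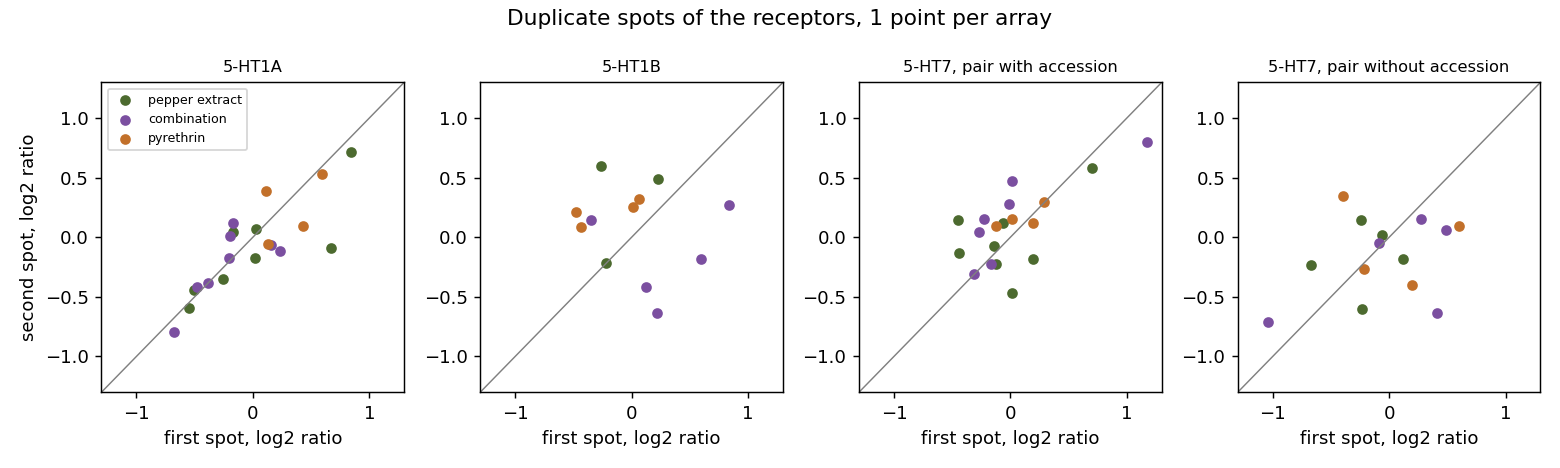
Value of the second spot (vertical axis, log2 ratio) against the first spot (horizontal axis, log2 ratio) of each duplicate, 1 point per array on which both were measured, coloured by treatment; the grey line marks equal values. The spots of 5-HT1A lie along the line (r = 0.814), whereas those of 5-HT1B do not (r = -0.152).

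For 5-HT1A the pepper extracts stood at -0.01, -0.21, 0.36 and -0.32 in replicates 1 to 4. The combination extracts stood at -0.27, -0.29, 0.02 and -0.34 in replicates 2, 4, 5 and 6. The pyrethrin extracts stood at -0.03, 0.50, 0.20 and 0.19 in replicates 1, 2, 4 and 5. After pepper and after the combination 3 of 4 values lay below the control, and after pyrethrin 3 of 4 lay above it. The mean was -0.05 ± 0.12 (SE, n = 4) after pepper, -0.22 ± 0.12 (SE, n = 4) after the combination and 0.21 ± 0.12 (SE, n = 4) after pyrethrin, with 95% intervals of -0.30 to 0.21, -0.47 to 0.03 and -0.05 to 0.48. The limma adjusted p over all features was 1, 0.597 and 0.605. The pepper mean had the opposite sign without replicate 2 (0.0095) or 4 (0.05) and without the arrays with foreign titles (0.13), and the pyrethrin mean was 0.12 without replicate 2. Read as Cy5 over Cy3 the 3 means were -0.31 (passing), 0.18 and -0.41.

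5-HT1B had no value in pepper replicate 1, and stood at 0.21, 0.35 and 0.25 in pepper replicates 2, 3 and 4. After the combination it stood at -0.09, -0.07, -0.0013 and 0.23 in replicates 2, 4, 5 and 6, and after pyrethrin at 0.33, -0.04, -0.0027 and 0.26 in replicates 1, 2, 4 and 5. The 3 measured pepper extracts were all above the control, as were 840 of the 11526 features in every measured pepper extract (7.29%), while the other 2 treatments had values on both sides. After the combination 0 of the 3 receptors were above the control in every extract, against 8.13% of features. The pepper mean was 0.27 ± 0.11 (SE, n = 3), a 1.21-fold level, with a 95% interval of 0.03 to 0.51 and a limma p of 0.0289, and the limma adjusted p was 1; 3.27% of all features had an unadjusted p under 0.05 in that comparison. The pepper arrays with treated RNA in Cy5 stood at 0.36, 0.54 and 0.71 for replicates 2, 3 and 4, and those with it in Cy3 at 0.06, 0.17 and -0.22. Replicate 2 in Cy3 and replicate 3 in Cy5 rested on the first spot alone, and replicate 4 in Cy5 on the second alone. The 2 spots stood at 0.23 and 0.49 on replicate 2 in Cy5 and at -0.26 and 0.59 on replicate 3 in Cy3. On replicate 4 in Cy3 both stood at -0.22. The pepper mean of 5-HT1B was 0.088 without the 2 arrays of foreign titles and 0.0039 on the Cy3 arrays alone. The mean was 0.02 ± 0.10 (SE, n = 4) after the combination, with a sign that turned where arrays were scaled to equal spread (-0.0058), and 0.14 ± 0.10 (SE, n = 4) after pyrethrin, with limma adjusted p-values of 0.969 and 0.693. The pyrethrin mean was 0.0053 without the dye correction described below, 0.073 without replicate 1 and 0.058 without the arrays of foreign titles, which enter that correction.

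For 5-HT7 the pepper extracts stood at -0.20, 0.16, -0.01 and -0.23 in replicates 1 to 4. The combination extracts stood at -0.04, -0.23, -0.21 and 0.35 in replicates 2, 4, 5 and 6. The pyrethrin extracts stood at 0.49, 0.16, 0.15 and 0.13 in replicates 1, 2, 4 and 5. Pyrethrin was the treatment with all 4 extracts above the control, a pattern shared by 9.51% of all features in that comparison, where 19.7% had 1 sign in every extract, and replicate 1 stood well above the other 3. The means were -0.07 ± 0.11 (SE, n = 4), -0.03 ± 0.11 (SE, n = 4) and 0.23 ± 0.12 (SE, n = 4), the last a 1.17-fold level with a 95% interval of -0.02 to 0.48. The limma adjusted p was 1, 0.95 and 0.538. The pyrethrin mean was 0.14 without replicate 1, 0.14 without both extracts of control 3 and 0.06 without the dye correction described below, and it was 0.31 on the spot pair with an accession and 0.17 on the other.

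**Figure D2:**
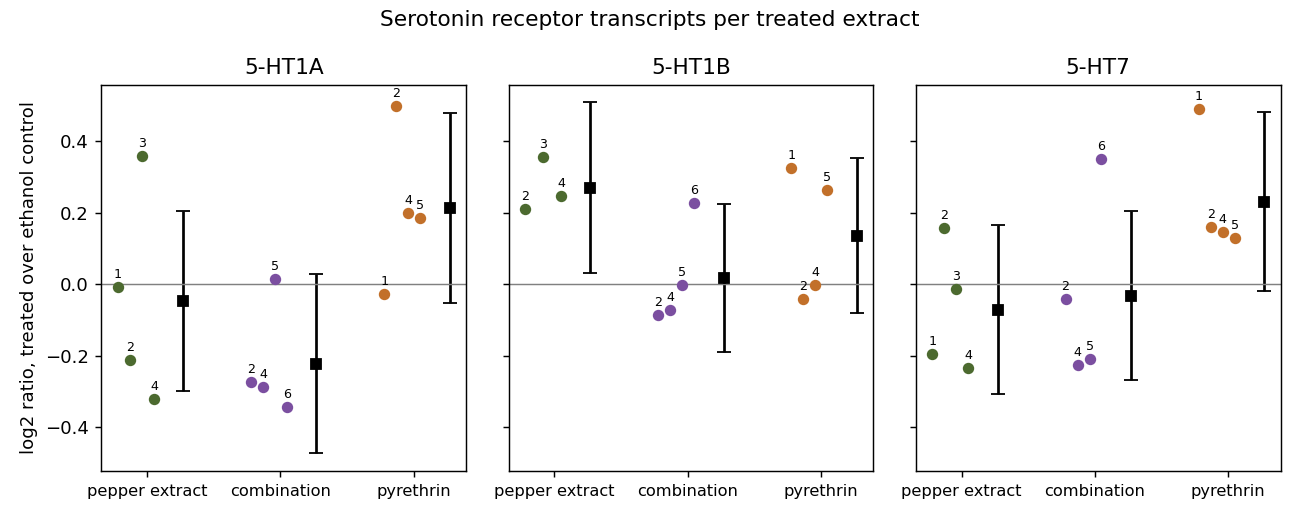
Log2 ratio of treated over ethanol control (vertical axis) for each treated extract (coloured points, numbered by replicate) under the 3 treatments (horizontal axis), with the mean and its 95% interval from the fit over all features (black squares and bars). The interval of 5-HT1B after pepper lies above 0 (0.03 to 0.51) and the other 8 intervals span 0.

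With limma, 0 of the 3 receptors passed an adjusted p of 0.05 against ethanol after any spray, and 1 (5-HT1B after pepper) had an unadjusted p under 0.05. Of all 11526 features, 0 passed after pepper and after the combination and 7 after pyrethrin (0.0607%), while 3.27%, 8.7% and 9.99% had an unadjusted p under 0.05. One fit of all 20 arrays with a term for the dye also called 0 receptors. The intervals that span 0 reach up to 0.48 in size on the log2 scale, so with 4 extracts per treatment they do not exclude changes of that size. They are not adjusted for the number of features, so their ends are no limit of detection. 5-HT1B after pepper, whose interval lay above 0, did not pass either. Averaged over the 3 treatments, 5-HT1B stood at 0.14 ± 0.06 (SE, n = 11; limma p = 0.0327, adjusted p = 0.704; 6.65% of features had an unadjusted p under 0.05 and 0.0868% passed). Without the arrays of foreign titles this average of 5-HT1B was 0.055, and on Cy3 arrays alone it was -0.00095. Its plain mean over the extracts, 0.13 (n = 11), was 0.073 on the first spot (n = 10). On the second spot it was 0.016, from pepper replicate 4 and combination replicates 5 and 6 alone, with no pyrethrin extract. 5-HT1A stood at -0.02 ± 0.07 and 5-HT7 at 0.04 ± 0.07 (SE, n = 12 each). Read as Cy5 over Cy3 the average of 5-HT1A was -0.18 and passed (limma adjusted p = 0.0182; 3256 features passed). Under that reading it did not pass the sign-flip test given next (adjusted p = 0.152). An exact two-sided sign-flip test over the extracts, which leaves out the shared pyrethrin controls, gave p = 0.0312 for 5-HT1B, 0.823 for 5-HT1A and 0.548 for 5-HT7, or 0.0938, 0.823 and 0.822 after Benjamini-Hochberg adjustment over the 3.

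Between sprays, 5-HT1A stood lower after the combination than after pyrethrin with the ratio read as treated over control, and higher with it read as Cy5 over Cy3 (0.59, limma adjusted p = 0.0696). The difference in the first reading was -0.44 ± 0.17 on the log2 scale (SE, 4 extracts against 4; 95% interval -0.80 to -0.07). In that comparison 12.1% of all features had an unadjusted p under 0.05 and 0 passed. The difference had a limma p of 0.023 and an adjusted p of 0.346, and the extracts overlapped, since combination replicate 5 at 0.02 lay above pyrethrin replicate 1 at -0.03. For 0 of the 3 receptors were the extracts of any 2 sprays fully apart, against 6.85% of features for the combination and pyrethrin, 3.75% for the combination and pepper and 4.87% for pyrethrin and pepper. The 5-HT1A difference was -0.19 where the pyrethrin arrays were corrected with the dye deviation of the pepper pairs alone and -0.68 with that of the combination pairs alone, neither passing. On the 12 arrays with the treated RNA in Cy3, where no dye correction enters, the 4 combination arrays (-0.45, -0.38, -0.03 and -0.74) lay below the 4 pyrethrin arrays (0.04, 0.56, 0.26 and 0.25), which 5.62% of features did in either direction, with a difference of -0.68 and a limma adjusted p of 0.659. On the same kind of array 5-HT7 was higher on the 4 pyrethrin arrays (0.32, -0.0091, -0.02 and -0.04) than on the 4 pepper arrays (-0.31, -0.09, -0.16 and -0.20), as 3.64% of features were apart, with a difference of 0.25 and a limma adjusted p of 1. The Cy3 arrays of the combination and pepper overlapped for all 3 receptors, where those of 6.35% of features did not.

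5-HT1A differed by -0.18 ± 0.17 (SE; 95% interval -0.53 to 0.18) between the combination and pepper, a value that was -0.041 without pepper replicate 3, -0.040 with the replicate number as a block and -0.36 without the arrays of foreign titles. It differed by 0.26 ± 0.17 (SE; -0.11 to 0.63) between pyrethrin and pepper. The differences of 5-HT1B were -0.25 ± 0.15 (SE; -0.57 to 0.06) for the combination minus pepper, -0.12 ± 0.14 (SE; -0.42 to 0.18) for the combination minus pyrethrin and -0.13 ± 0.15 (SE; -0.46 to 0.19) for pyrethrin minus pepper. Those of 5-HT7 were 0.04 ± 0.16 (SE; -0.30 to 0.37), -0.26 ± 0.16 (SE; -0.61 to 0.08) and 0.30 ± 0.16 (SE; -0.04 to 0.65) in the same order. Read as Cy5 over Cy3, pyrethrin minus pepper was -0.11 for 5-HT1A and -0.23 for 5-HT7, and the combination minus pyrethrin was 0.33 for 5-HT7, each with the sign turned. The combination minus pepper of 5-HT1B was -0.071 without the arrays of foreign titles. In the first reading none of these 8 differences had a limma adjusted p under 0.528, and of all features 0 passed in each of the 3 comparisons, with 4.63%, 12.1% and 5.62% at an unadjusted p under 0.05. The doses in the combination are lower than in the single sprays, so these differences are no tests of an interaction.

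The values depended on the dye in which the treated RNA was labelled. For each exchanged pair, the dye deviation was taken as the value of the array with treated RNA in Cy3 minus the mean of both arrays. It is also, with the sign turned, the value the extract takes if the deposited ratio is read as Cy5 over Cy3, so the same arrays hold a dye effect under one reading and a treatment effect under the other. In 5-HT7 the deviation was negative in 7 of 8 pairs, with a mean of -0.17 ± 0.06 (SE; limma adjusted p = 0.0435; exact two-sided sign-flip p = 0.0156 over 8 pairs, 0.0469 adjusted over the 3 receptors). A downward dye deviation passed for 12.5% of the 11884 features tested and a deviation in either direction for 26.7%, and 5-HT7 lost the call when any of 7 of the 8 pairs was left out (adjusted p 0.0564 to 0.103). 5-HT1B had a mean deviation of -0.13 ± 0.09 (SE, n = 7 pairs; limma adjusted p = 0.311) and 5-HT1A of 0.06 ± 0.09 (SE, n = 8 pairs; limma adjusted p = 0.627).

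The small mean of 5-HT1A hid opposite deviations in the 2 treatments. On the pepper arrays with treated RNA in Cy3 it stood at 0.29, 0.05, 0.78 and -0.07 in replicates 1 to 4, and on their partners with the treated RNA in Cy5 at -0.30, -0.47, -0.06 and -0.57. On the combination arrays with treated RNA in Cy3 it stood at -0.45, -0.38, -0.03 and -0.74 in replicates 2, 4, 5 and 6, and on their partners at -0.09, -0.19, 0.06 and 0.05. Each pepper extract was thus higher in Cy3, with deviations of 0.25 to 0.42, and each combination extract lower in it, with deviations of -0.39 to -0.04, so the 2 sets did not overlap. That was true of 11% of the 11529 features tested for this difference.

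The difference in the dye deviation of 5-HT1A between the treatments was -0.48 ± 0.11 (SE; limma adjusted p = 0.0493), a comparison added after the values were seen, in which 1.54% of features passed. An exact two-sided permutation of the 8 pairs gave p = 0.0286, the smallest it can give, and 0.0857 adjusted over the 3 receptors. The call was lost when any 1 of the 8 pairs was left out (-0.53 to -0.41, adjusted p 0.0865 to 0.132). It stood at -0.37 on the second spot (adjusted p = 0.154). Read as Cy5 over Cy3, 5-HT1A stood at -0.31 after pepper and passed (limma adjusted p = 0.0132), as did 2264 features. Under that reading it stood at 0.18 after the combination, -0.41 after pyrethrin and 0.48 for the combination minus pepper (limma adjusted p = 0.127, 0.0957 and 0.0382; 235 features passed in the last). 5-HT7 stood at 0.12, 0.22 and -0.11 after pepper, the combination and pyrethrin under that reading, and its sign was thus turned for all 3 sprays.

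**Figure D3:**
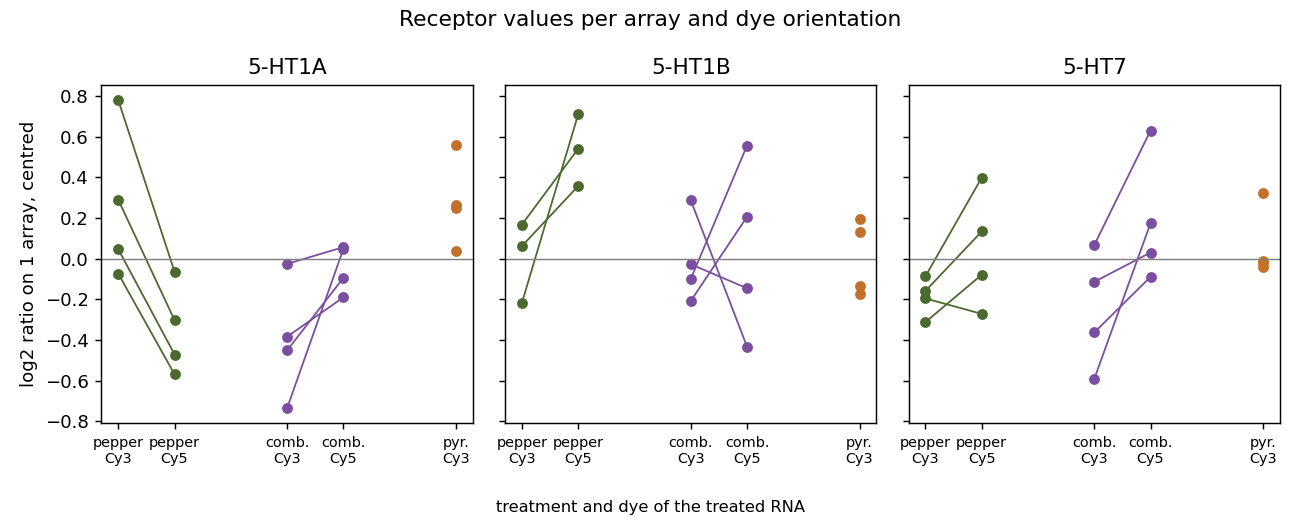
Log2 ratio of each array as deposited, after its median was subtracted (vertical axis), by treatment and dye of the treated RNA (horizontal axis: pepper extract, combination and pyrethrin); lines join the 2 arrays of the same extract. The 4 pepper lines of 5-HT1A fall from Cy3 to Cy5 and the 4 combination lines rise, and 7 of the 8 lines of 5-HT7 rise.

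Because the pyrethrin arrays had no exchanged partner, the mean dye deviation of the 8 pairs was subtracted from each. The same value was taken from all 4 extracts as if known. Its SE was 0.09, 0.09 and 0.06 for 5-HT1A, 5-HT1B and 5-HT7. This error is not in the main fit's standard errors and p-values that include pyrethrin, so the intervals after pyrethrin are too narrow. In 1 fit of all 20 arrays, which estimates the dye term, the limma adjusted p after pyrethrin was 0.999 for each receptor, against 0.605, 0.693 and 0.538. On the arrays themselves 5-HT1A stood at 0.04, 0.56, 0.26 and 0.25, 5-HT1B at 0.19, -0.17, -0.13 and 0.13, and 5-HT7 at 0.32, -0.0091, -0.02 and -0.04 in replicates 1, 2, 4 and 5. Before the correction 1 of the 4 pyrethrin arrays was above the control for 5-HT7 and after it all 4. For 5-HT1A the pyrethrin mean was 0.21 with the deviation of all pairs, -0.03 with that of the pepper pairs alone and 0.46 with that of the combination pairs alone, and none of these passed (adjusted p = 0.605, 0.945 and 0.0919).

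No joint movement of the 3 receptors was detected by these measures. The duplicate spots of 5-HT1B correlated at -0.152, which limits what its pairs with the other genes could show. Of the 11 extracts with all 3 measured, all 3 were above the control in 1 (pyrethrin replicate 5), all 3 were below it in 2 (combination replicates 2 and 4), and the other 8 were mixed. This count was not set against that of unrelated genes, so it is a description and does not decide whether the receptors move together. Across extracts, 5-HT1A and 5-HT1B correlated at r = 0.03 (rho = 0.12, n = 11, permutation p = 0.933 and 0.739), 5-HT1A and 5-HT7 at r = 0.16 (rho = 0.21, n = 12, permutation p = 0.605 and 0.514) and 5-HT1B and 5-HT7 at r = 0.41 (rho = 0.25, n = 11, permutation p = 0.204 and 0.468). The p-values adjusted over the 3 pairs were 0.933, 0.908 and 0.612 for r and 0.739 for each rho. Without the 2 extracts farthest from the median of the first gene, r was 0.05, 0.16 and 0.23. The p-values take the extracts as independent, although pyrethrin extracts share controls and 1 dye correction. The control names carry the spray, whereas array titles number the ethanol controls without it. Whether control extracts also recur between sprays is therefore not known.

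Within 1 dye orientation no pair passed either (adjusted p = 0.966 for each pair in Cy3 and 0.65 in Cy5). Over the arrays with treated RNA in Cy3, r was 0.05, 0.01 and 0.20 for the same 3 pairs (n = 11, 12 and 11; permutation p = 0.884, 0.966 and 0.554). Over those with it in Cy5, r was -0.24, 0.47 and 0.25 (n = 7, 8 and 7; exact permutation p = 0.65, 0.234 and 0.602). With the treatment means subtracted, 5-HT1B and 5-HT7 correlated at 0.60 (permutation p = 0.0566, 0.17 adjusted), and at 0.05 without the 2 extracts farthest from the median of 5-HT1B. 5-HT1A correlated at -0.23 with 5-HT1B and at -0.29 with 5-HT7 in that form. The genes 5-HT1A and 5-HT1B are near neighbours, with 4 protein-coding genes between them in the GCF_000001215.4 annotation, and 5-HT7 lies on another chromosome arm.

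**Figure D4:**
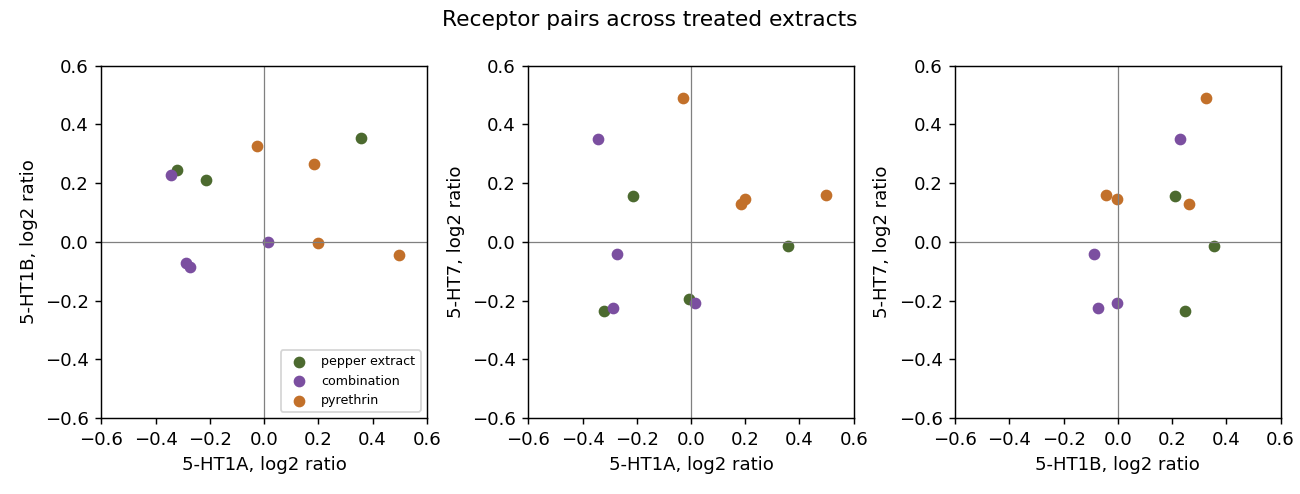
Log2 ratio of 1 receptor against another (both axes, treated over ethanol control) for each treated extract, coloured by treatment; grey lines mark the control level. The points of the 3 panels scatter with r of 0.03, 0.16 and 0.41 over 11 or 12 extracts.

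Of 2164 genes with a symbol, those whose values over the 12 extracts were most like 5-HT1A were atl (r = 0.84), CG11617 (0.83) and CG5823 (0.82). For 5-HT7 they were CG6191 (0.91), CG1344 (0.88) and the ribosomal protein gene RpL32 (0.86). For 5-HT1B they were elm (0.83), Magi (0.79) and TfIIS, a factor of transcript elongation (0.79), among 2148 genes over 11 extracts. They are the highest of many correlations over few extracts, and are given as a description. Both genes of a pair were read on the same arrays, and the pyrethrin extracts share controls.

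Genes that make, carry or receive serotonin other than these 3 receptors, and those for dopamine, octopamine and tyramine synthesis, are not analysed here, since 0 of the 10 and 0 of the 7 listed members carried a symbol on the array. Of 20 other amine and small-transmitter receptors 2 were tested. DopEcR, which binds dopamine and ecdysteroids, stood at -0.09 after pepper, -0.08 after the combination and 0.01 after pyrethrin. The metabotropic glutamate receptor gene mGluR stood at 0.04, -0.03 and -0.10. Of 38 genes of G protein and cyclic AMP signalling, into which the receptors feed, 7 were tested. Of these, 3, 3 and 6 were above the control after pepper, the combination and pyrethrin, with medians of -0.05, -0.02 and 0.06, where 51.4%, 53.7% and 48.6% of all features were above it. Among them Pde9, a cyclic nucleotide phosphodiesterase, stood at 0.16, 0.03 and 0.06, and the adenylyl cyclase gene Ac78C at 0.0028, -0.23 and 0.07. Galphaq, a G protein alpha subunit, stood at -0.10, 0.0076 and -0.06, and loco, which speeds the switching-off of inhibitory G proteins, at 0.07, -0.02 and 0.04. With limma 0 of these 9 genes passed in any of the 3 comparisons and 0 had an unadjusted p under 0.05.

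Of 18 markers of neurons, the cells in which the receptors are best known, 5 were tested. All 5 were above the control after the combination (median 0.17), 2 of 5 after pepper (median -0.02) and 0 of 5 after pyrethrin (median -0.12). Of all features, 53.7%, 51.4% and 48.6% were above it in the same order. The 5 markers were read on the same arrays, so they are not 5 separate observations. With limma 0 passed and 1 had an unadjusted p under 0.05 after the combination, where 8.7% of all features had one. cpx, a regulator of vesicle release, stood at 0.01, 0.26 and -0.13 after pepper, the combination and pyrethrin. The microtubule-associated protein gene futsch stood at -0.07, 0.28 and -0.12, the synaptobrevin gene nSyb at -0.02, 0.04 and -0.14, and the RNA-binding protein gene fne at 0.04, 0.0017 and -0.0067. Their part in the receptor values was not tested. Since a ratio holds no level, the presence of these cells cannot be read from it.

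Of the other cell type markers, 3 of 10 for glia, 2 of 10 for fat body, 1 of 12 for ovary and 4 of 12 for muscle were tested, and 0 passed. The glial genes nrv2, a sodium pump subunit, and Inx2, a gap junction protein, stood at 0.51 and -0.35 after pyrethrin, both with an unadjusted limma p under 0.05 (9.99% of all features), and moody at -0.04. The medians after pepper, the combination and pyrethrin were 0.04, -0.07 and -0.04 for glia, 0.03, 0.02 and -0.25 for the fat body genes Fbp2 and apolpp, and 0.07, -0.0084 and 0.08 for muscle. One muscle gene after pepper (3.27% of all features) and the ovary gene after the combination (8.7% of all features) had an unadjusted limma p under 0.05. Tm2, a tropomyosin, stood at 0.41, 0.07 and 0.15, Act88F, the flight muscle actin, at 0.15, -0.16 and 0.14, up at -0.07, -0.02 and 0.02, and TpnC73F at -0.01, 0.0035 and 0.02. The yolk protein receptor gene yl stood at -0.15, -0.29 and 0.04. Their part in the receptor values was not tested either.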

How the data were processed

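The deposited table holds 1 log2 ratio of the 2 colour channels per spot and array; the base was taken from the range of the values, and for the authors' scanning and normalization no description is given in the sources used here. Per the labels' protocols, 80 µg of total RNA was labelled directly. Each array's median was subtracted, spots with the same single symbol were averaged (16896 spots, 5666 with 1 symbol; 5.36% of values missing), and the 2 arrays of an exchange were averaged where both were measured. Pyrethrin arrays had the mean dye deviation of at least 4 pairs subtracted as a fixed value, whose error did not enter the fit. Features measured in at least 3 of 4 extracts of every treatment were fitted with R 4.3.3 and limma 3.58.1 (statmod 1.5.0). The model held 1 mean for each treatment. Array weights were 1.02 where 2 arrays had been averaged and 0.966 otherwise, and control extract, taken as separate for each spray, entered as a random block (correlation 0.0646). Dye deviations were fitted with features in at least 6 of 8 pairs. Tests were two-sided, with Benjamini-Hochberg adjustment over all features and a threshold of 0.05; permutations used scipy 1.17.1 (100000 resamples, exact below 10 values). The fits were tested on simulated data. The labels number the extracts separately, without saying whether cultures were separate, so p-values measure the spread between these extracts, whose number limits the precision. All 3 receptors are named, with the 3 most correlated genes of each and up to 4 tested members of each gene list, those whose signed mean over the 3 treatments was largest in size. The members and lists were chosen with earlier results of these data known. Alternatives covered direction, dye correction, orientation, foreign titles, filters, scaling, spots, models, and leaving out extracts or controls. Same-numbered extracts deviated together (r over 0.1) in 1 of 8 pairs (-0.326 to 0.149), so replicate numbers were not taken as pairs. Symbols matched the GCF_000001215.4 annotation by gene identifier; no sequence of the members was used.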

Additional observations from a re-analysis of the deposited data

Results flagged for a closer look

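The 5-HT7 value of pyrethrin replicate 1, at 0.49 among the extracts and 0.32 on its array, lay far from the other 3 of its group by Dixon's criterion; 26 groups were tested, of which chance flags about 1 in 20, and these 2 rest on the same array. The dye deviation of 5-HT1A differed between the combination and pepper by -0.48, with pairs that did not overlap, as for 11% of features. The limma call was lost when any 1 pair was left out, and the exact permutation p adjusted over the receptors was 0.0857. On the arrays with treated RNA in Cy3, 5-HT1A was below the control on all 4 combination arrays and above it on all 4 pyrethrin arrays, a difference of -0.68 that did not pass in limma (adjusted p = 0.659). The Cy3 arrays of these sprays did not overlap for 5.62% of features, in either direction.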

How the results depend on the processing

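Of 732 values under alternatives, 469 tests kept direction and side of the threshold, 114 counts stayed within 1.5 times and 62 counts moved by over 1.5 times. A further 60 values changed sign, and with the sign kept 24 lost and 3 gained a call. A value that changed sign was counted only as such, also where it passed, as 5-HT1A did below for the combination minus pepper. The cause of these changes was not tested. Values of receptors are log2 ratios.

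With the ratio read as Cy5 over Cy3, 5-HT1A gave -0.31 after pepper and -0.18 on average (both passing in limma). It gave 0.18 after the combination and -0.41 after pyrethrin. Between sprays it gave 0.48 for the combination minus pepper (passing), 0.59 for the combination minus pyrethrin, and -0.11 when pyrethrin was set against pepper. 5-HT7 gave 0.12, 0.22 and -0.11 after pepper, the combination and pyrethrin, 0.33 for the combination minus pyrethrin, and -0.23 when pyrethrin was set against pepper. The features passing were 2264, 1918, 90 and 3256 (pepper, combination, pyrethrin, mean), 235, 43 and 9 between sprays. The correlation of 5-HT1A with 5-HT1B became -0.27.

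On Cy3 arrays alone 5-HT1A stood at 0.26 after pepper and 0.046 on average, 5-HT1B at -0.012 after the combination, -0.00095 on average (-0.0014 as a plain mean) and 0.0014 for pyrethrin minus pepper, and 5-HT7 at -0.13 on average and -0.062 for the combination minus pepper; 247, 370, 1 and 1834 features passed. With no dye correction the averages were 0.0033 for 5-HT1A and -0.014 for 5-HT7, 5-HT1B was 0.012 for the combination minus pyrethrin, 5-HT1A correlated at -0.22 with 5-HT1B and -0.024 with 5-HT7, and 132 features passed after pyrethrin, 26 on average, 1 for the combination minus pyrethrin, and 1 when pyrethrin was set against pepper. With the correction from pepper pairs (added after seeing the data) 5-HT1A was -0.029 after pyrethrin, 5-HT1B 0.0014 for pyrethrin minus pepper, and 148 and 29 features passed after pyrethrin and for the combination minus pyrethrin. From combination pairs (also added) 5-HT1A averaged 0.062, and 118 features passed after pyrethrin, 48 for the combination minus that spray and 1 for its difference from pepper.

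Without the arrays of foreign titles, 5-HT1A was 0.13 after pepper and 0.072 on average, 5-HT7 0.0042 after pepper and -0.036 for the combination minus pepper, 16 features passed on average and 27 for the difference in dye deviation, whose 5-HT1A value was -0.45 (not passing), and the mean dye deviation of 5-HT1A was -0.026. On first spots 5-HT1A was 0.010 after pepper and 0.0090 on average and correlated at -0.45 with 5-HT1B. 5-HT7 after the combination was 0.062 and 0.034 on the first and second spots of the pair with an accession, and averaged -0.0097 on the other pair. Scaling to equal spread gave -0.0058 for 5-HT1B after the combination, 15 features after pyrethrin and 20 on average. With treatment means subtracted 5-HT1A correlated at -0.23 and -0.29 with 5-HT1B and 5-HT7. After pyrethrin 13 features passed with values in all 12 extracts, 4 with at least 2 per treatment, 16 with neither block nor weights, 0 in 1 fit of 20 arrays (20 on average), and 0 without control extract 4 (0 on average); without control 3, 1 passed on average and 1 for the combination minus pyrethrin.

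The dye deviation of 5-HT1A was 0.31 in pepper pairs (passing) and -0.18 in combination pairs, where 1857 and 829 features passed, and the difference was -0.37 on the second spot. That of 5-HT7 did not pass in pepper pairs (-0.12), combination pairs (-0.22), after scaling (-0.14), on the first and second spots with an accession (-0.24 and -0.11) or on either spot pair (-0.18 and -0.18).

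Leaving out 1 extract gave ranges of -0.18 to 0.046 for 5-HT1A after pepper, -0.063 to 0.012 on average and -0.53 to -0.41 for its difference in dye deviation, -0.053 to 0.051 for 5-HT1B after the combination, and for 5-HT7 -0.16 to 0.033 after the combination, -0.087 to 0.12 for the combination minus pepper and -0.20 to -0.14 for the dye deviation. Counts ranged from 0 to 3 after the combination, 0 to 7 after pyrethrin, 0 to 29 on average, 0 to 3 for the combination minus pyrethrin, 0 to 1 for pyrethrin minus pepper and 2 to 134 for the difference in dye deviation.

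The numbers do not pair the extracts; with the replicate block 5-HT7 was -0.025 for the combination minus pepper, the other receptor differences kept their sign and 0 features passed between sprays. Not run were a filter on dim spots, since only ratios are given, and fits of the sparse second spot of 5-HT1B. Signal over background cannot be judged from ratios.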
